A study of Mus musculus with 12 samples.

Results

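The miRNAs described here come from the hairpins of miR-199a, miR-199b and miR-214, which are best known from stromal and other mesenchymal cells. All names of these hairpins were taken from a table of 1652 mature miRNA names. Of the 6 arms that the hairpins can give, 4 had values that were used: miR-199a-5p, miR-199b-5p, miR-214-5p and miR-214-3p. The 3p arms miR-199a-3p and miR-199b-3p were not analysed here. Small RNA was sequenced from whole kidneys of untreated wild-type (WT) mice, with 6 libraries at postnatal day 8 and 6 at day 0. Both ages share the genotype and the lack of treatment, and the stated aim of the series was to find miRNAs that change in this period and could act on the mineralocorticoid receptor (MR). In whole tissue, fewer cells of a type and less miRNA per cell cannot be told apart, and the cells that made these miRNAs were not measured.

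A miRNA is cut from a hairpin precursor as a short duplex, of which either strand, the 5p or the 3p arm, can enter an Argonaute protein and repress messages that pair with its seed, bases 2 to 8. The hairpins of miR-199a-2 and miR-214 lie in one long non-coding transcript, Dnm3os, which runs antisense to the dynamin gene Dnm3 and is activated in mesenchyme by the transcription factor Twist1. Mice without Dnm3os have skeletal and growth defects. Both miRNAs are raised in fibrotic organs: miR-199a-5p represses caveolin 1, a membrane protein that restrains TGF-beta signalling, and miR-214-3p represses Ezh2, a histone methyltransferase. In the kidney, miR-214 is known for its rise in tubules and interstitium after injury.

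The mature sequences are shown because the arms are counted by sequence, and because sequence decides which of them can be told apart. They are from RefSeq on GRCm38.p6, read 5′ to 3′ with the seed in capitals.
miR-199a-5p: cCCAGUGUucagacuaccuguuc
miR-199a-3p: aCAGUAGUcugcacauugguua
miR-199b-3p: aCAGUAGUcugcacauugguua
miR-214-5p: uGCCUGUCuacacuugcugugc
miR-214-3p: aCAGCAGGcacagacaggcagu
The 3p arms of miR-199a and miR-199b are the same sequence, so a read of it belongs to both names. Across RefSeq, 9 mature names share their whole sequence with another name, and 0 of these were used here. miR-199a-5p is made with one sequence from both miR-199a loci, so its value is the sum of miR-199a-1 and miR-199a-2. Each of the other analysed arms has 1 locus. The mature sequence of miR-199b-5p, the counterpart of miR-199a-5p at the third locus, is not printed. The seed of miR-199b-5p was not compared with the others, so whether it shares that of miR-199a-5p is not shown here. Among the RefSeq sequences compared, 0 other names carried the seed of miR-214-5p, and 1 other name, miR-761, carried the seed of miR-214-3p, CAGCAGG. miR-761 was not analysed here.

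Both hairpins of the shared transcript lie on the plus strand of chromosome 1 (GRCm38), miR-199a-2 at chr1:162217814-162217923 and miR-214 at chr1:162223368-162223477, with 5444 bases between them. By the GENCODE annotation each lies within an exon of Dnm3os and within an intron of the protein-coding gene Dnm3, which is transcribed from the opposite strand. miR-199a-1, at chr9:21496495-21496564 on the minus strand, lies within an intron of Dnm2, and miR-199b, at chr2:32318460-32318569 on the plus strand, within an intron of Dnm1, each again on the strand opposite to the host. The hairpins of the shared transcript are shown because a change of one arm against the other within miR-214 is among the results. The mature arms are in capitals, the 5p arm first.
miR-199a-2: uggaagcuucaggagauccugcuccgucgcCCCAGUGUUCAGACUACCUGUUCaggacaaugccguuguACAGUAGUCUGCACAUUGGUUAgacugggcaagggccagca
miR-214: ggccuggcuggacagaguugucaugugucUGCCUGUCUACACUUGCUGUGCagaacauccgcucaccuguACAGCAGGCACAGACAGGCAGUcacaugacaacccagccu

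The libraries held 5.16 to 11.8 M miRNA reads at day 8 and 3.37 to 9.05 M at day 0 (M, 1000000). Values are CPM, reads of a miRNA per M miRNA reads of the library, and a change in CPM means a change in the share of the library. Between 359 and 66740 reads per library lay behind each of the 4 miRNAs. Day 8 replicate 3 and day 0 replicate 6 lay apart from the others on the second principal component (10.4% of the variance), and both had the fewest reads of their age. Results are therefore given with and without them where they matter. The kidney-enriched miR-192-5p and miR-194-5p were present in every library (at least 2606 and 1547 CPM).

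The comparison of ages asked which of these miRNAs changed in the first days after birth, when the nephrogenic zone closes and the kidney takes up salt balance. The arms counted for the hairpins of the shared Dnm3os transcript did not move alike. However, miR-199a-5p also comes from miR-199a-1, and the part of it from Dnm3os was not measured. Both arms of miR-214 fell, the 3p arm to 0.246 of its mean share at day 0, while miR-199a-5p, by far the most abundant of the 4, had no change past the threshold. miR-199b-5p had a small decrease that depended on the scaling.

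miR-214-3p ranged from 37.5 through a median of 52.8 to 75.0 CPM at day 8, and from 164 through a median of 232 to 290.0 CPM at day 0. Every day 8 library was below every day 0 library. The means were 55.6 ± 15.1 CPM at day 8 and 226 ± 50.7 CPM at day 0 (SD, n = 6 each), a day 8 to day 0 ratio of 0.246. The log2 change, always day 8 minus day 0 and here on the scale of log2(CPM + 1), was -2.01 (SE 0.189, adjusted p = 3.2e-07, limma with a mean-variance trend). The two-sided exact permutation p was 0.00216, the smallest that 6 libraries against 6 can give. miR-214-3p, the arm with the known target Ezh2, ranked 39th from the bottom among the 564 log2 changes tested.

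miR-214-5p, the opposite strand of the same hairpin, ranged from 81.4 through a median of 116 to 123 CPM at day 8 and from 209.6 through a median of 231 to 260.3 CPM at day 0. Again the ages did not overlap. The means were 111 ± 15.1 CPM at day 8 and 231 ± 19.2 CPM at day 0 (SD, n = 6 each), a ratio of 0.483. Its log2 change was -1.05 (SE 0.110, adjusted p = 1.1e-06, limma), and the exact permutation p was 0.00216, again the smallest possible.

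miR-199a-5p ranged from 2645 through a median of 4851 to 5665 CPM at day 8, and from 4562 through a median of 5254 to 5785 CPM at day 0. The ages overlapped, and day 8 replicate 3, at 2645 CPM, was far below the next day 8 library, at 4054 CPM. The means were 4500.0 ± 1043 CPM at day 8 and 5274 ± 452 CPM at day 0 (SD, n = 6 each). The log2 change of -0.26 (95% interval -0.58 to 0.06, limma adjusted p = 0.134) did not pass the threshold, nor did the exact permutation test (p = 0.110). The interval holds both no change and a fall of a size near that of miR-199b-5p, but not one of the size of either arm of miR-214. Without day 8 replicate 3 the log2 change was -0.12, and its sign turned with the scaling.

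miR-199b-5p, from the Dnm1 locus, ranged from 334 through a median of 639 to 675 CPM at day 8 and from 628.5 through a median of 742 to 919.9 CPM at day 0. Day 8 replicate 3 was again the lowest, at 334 CPM, and the other day 8 libraries lay between 514 and 675 CPM. The means were 578 ± 134 CPM at day 8 and 753 ± 110 CPM at day 0 (SD, n = 6 each). The log2 change was -0.41 (limma adjusted p = 0.0420, 95% interval -0.76 to -0.05), and the exact permutation p was 0.0281. That call was lost when any one of 7 libraries was left out (adjusted p up to 0.0956 by limma), and with TMM factors the log2 change was -0.02.

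**Figure D1:**
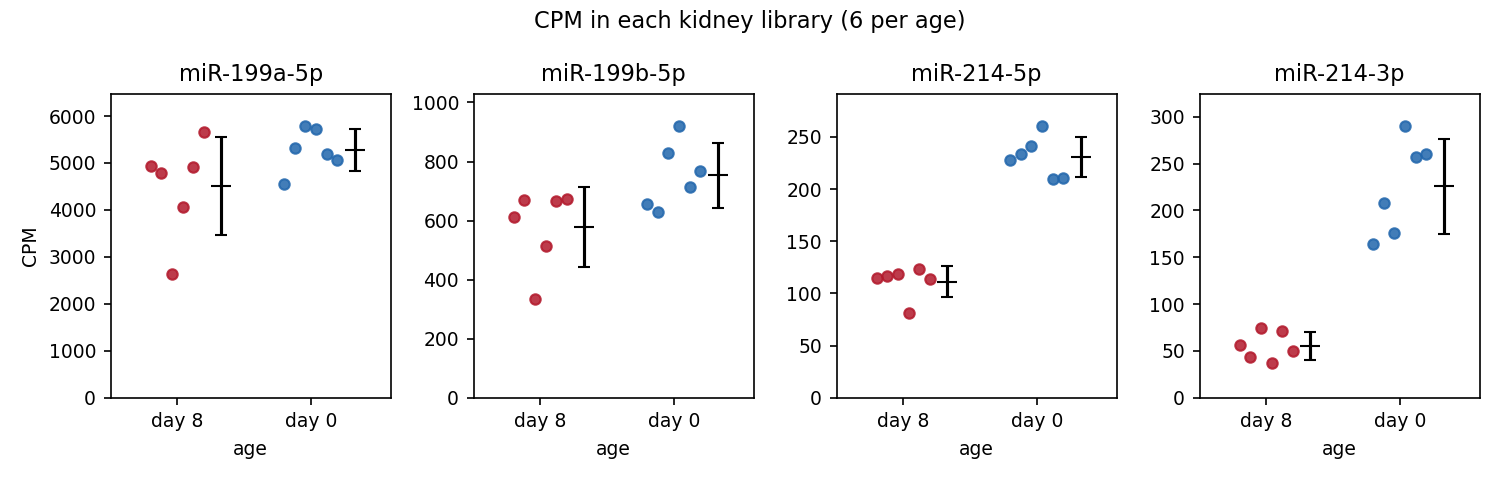
CPM (y axis, from 0, a separate scale in each panel) of miR-199a-5p, miR-199b-5p, miR-214-5p and miR-214-3p in each of 6 day 8 and 6 day 0 kidney libraries (points), with the mean and SD beside them (bar). For both arms of miR-214 every day 8 point lies below every day 0 point, while the ages overlap for miR-199a-5p and miR-199b-5p, whose lowest point is day 8 replicate 3 in each case.

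Of the 564 names tested, limma called 64.7%, with 48.2% lower and 16.5% higher at day 8. The 3 of 4 miRNAs called lower here, a share in which a single name decides much, are read against that 48.2%. The libraries of the ages did not overlap for 45.9% of all names, and for 35.1% with day 8 lower, as for 2 of the 4 miRNAs. The median log2 change was -0.73 over the 4 and -0.34 over all names tested. TMM factors, which assume that most miRNAs do not change, moved the median over all names to -0.00. With them limma called 64.5% of names, 30.3% (171) higher and 34.2% (193) lower, against 93 higher and 272 lower by share of the library, so small decreases are decreases relative to the library total. With TMM factors the log2 changes were -1.63 for miR-214-3p (adjusted p = 1.0e-06, limma), -0.66 for miR-214-5p (adjusted p = 3.5e-05) and 0.13 for miR-199a-5p (adjusted p = 0.477). Both arms of miR-214 were thus lower under each scaling, and the direction of miR-199a-5p and miR-199b-5p depended on it.

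**Figure D2:**
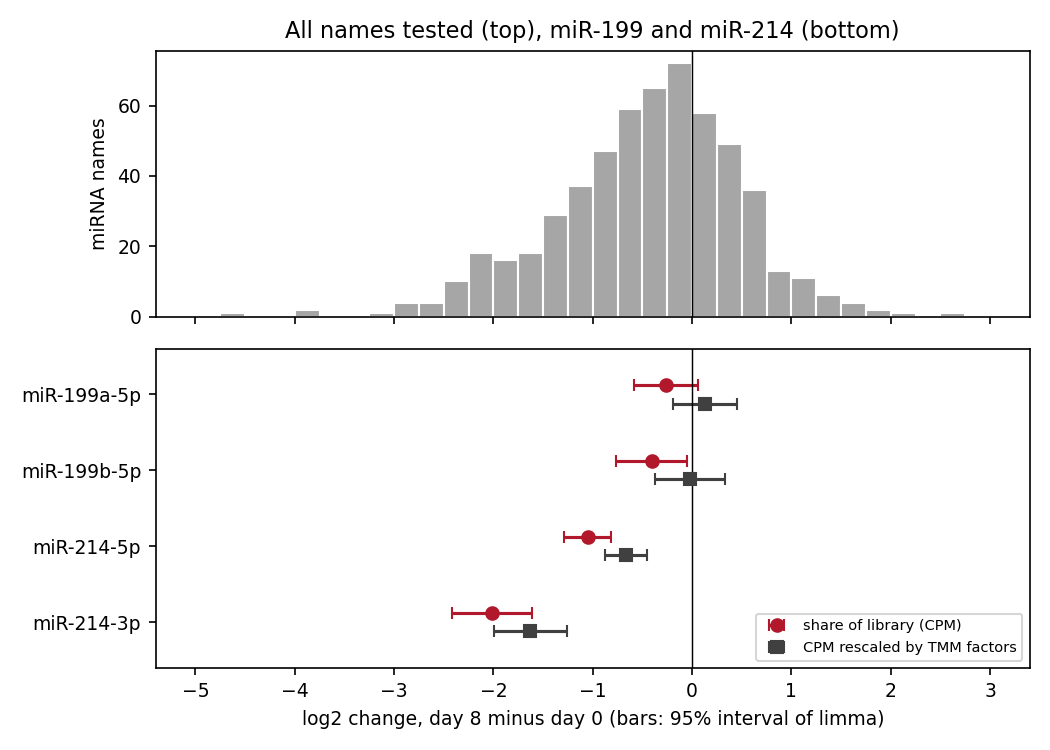
Top: histogram of the log2 change (x axis, day 8 minus day 0) of all 564 names tested. Bottom: the log2 change of the 4 miRNAs with its 95% interval, by share of the library (circles) and after rescaling by TMM factors (squares). Both intervals of miR-214-3p and of miR-214-5p lie below 0, and those of miR-199a-5p span 0.

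Ratios taken within a library do not depend on its scaling. miR-214-3p had 1.36 ± 0.756 reads per 100 reads of miR-199a-5p at day 8 and 4.28 ± 0.889 at day 0 (SD, n = 6 each). The libraries ran from 0.874 through a median of 1.03 to 2.84 at day 8 and from 3.04 through a median of 4.43 to 5.14 at day 0, with no overlap. Over all names, 12.8% of ratios to miR-199a-5p were lower at day 8 without overlap. To test this, the log2 ratio to miR-199a-5p was fitted for every other name. For miR-214-3p it changed by -1.75 (SE 0.265, adjusted p = 6.3e-05, limma), for a fit in which 47.4% of 563 names were called and 28.6% were called lower. These names share the denominator, so their calls are not independent. Without day 8 replicate 3 the change was -1.99.

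miR-214-5p had 2.63 ± 0.941 reads per 100 reads of miR-199a-5p at day 8 and 4.39 ± 0.354 at day 0 (SD, n = 6 each). Its log2 ratio changed by -0.79 (SE 0.188, limma adjusted p = 0.00301). Here the ages overlapped through a single library: day 8 replicate 3 had 4.50, while the other day 8 libraries had at most 2.50 and the day 0 libraries between 4.04 and 5.00. Without day 8 replicate 3 the change was -0.95 (limma adjusted p = 2.3e-06).

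miR-199b-5p is a close relative of miR-199a-5p, so how reads were split between them is uncertain. It had 12.9 ± 0.774 reads per 100 reads of miR-199a-5p at day 8 and 14.3 ± 1.44 at day 0 (SD, n = 6 each), with overlapping libraries. The change of the log2 ratio was -0.14 (95% interval -0.41 to 0.12, limma adjusted p = 0.357). Within day 8 the SD of this log2 ratio was 0.0859, against 0.388 for log2(CPM + 1) of miR-199a-5p and 0.396 for that of miR-199b-5p, so the library that was low in one was low in the other. Day 8 replicate 3 made up much of this spread: without it (n = 5) the SD was 0.0953 for the log2 ratio, 0.172 for miR-199a-5p and 0.166 for miR-199b-5p. The log2 ratio of miR-214-3p to miR-199a-5p had an SD of 0.645 at day 8 and 0.312 at day 0, and of 0.301 at day 8 without that library. In day 8 replicate 3 miR-199a-5p and miR-199b-5p were the lowest of their age, miR-214-3p was the highest, and miR-214-5p was the second highest.

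**Figure D3:**
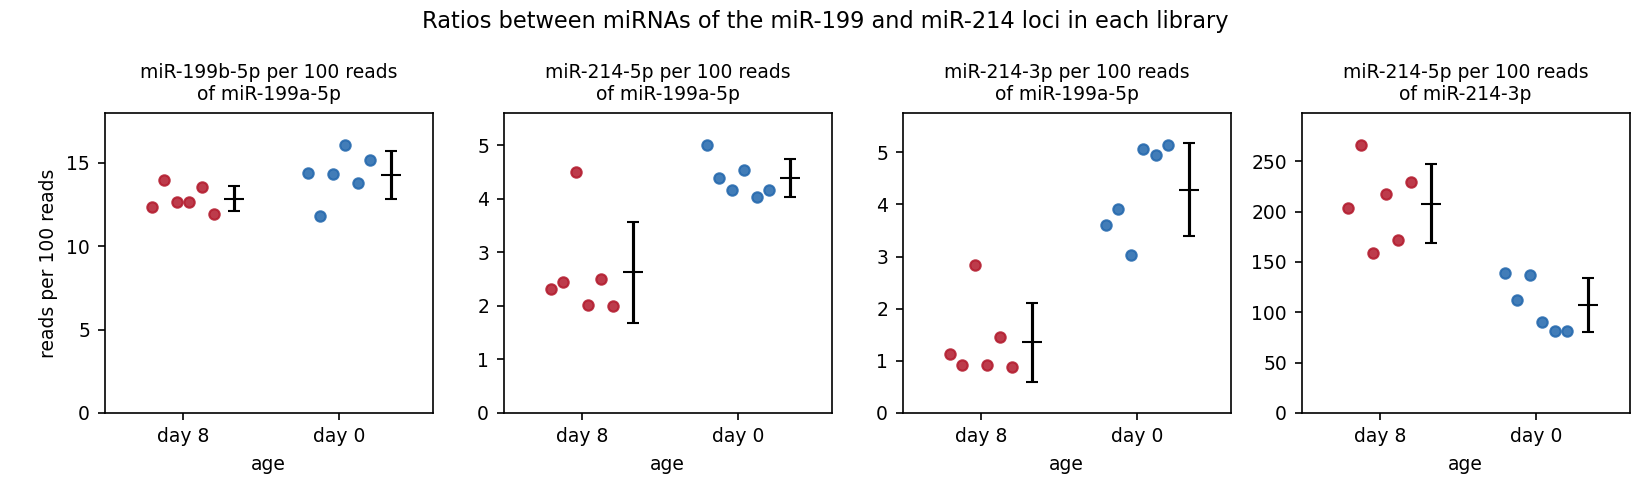
Reads of one miRNA per 100 reads of another (y axis, from 0) in each of 6 day 8 and 6 day 0 libraries (points), with mean and SD (bar). The ratio of miR-199b-5p to miR-199a-5p overlaps between ages, that of miR-214-3p to miR-199a-5p is lower in every day 8 library, that of miR-214-5p is lower in every day 8 library but replicate 3 (4.50), and the ratio of miR-214-5p to miR-214-3p is higher in every day 8 library.

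The arms of miR-214 were balanced at day 0 and unequal at day 8. For every 100 reads of the 3p arm there were 208 ± 39.1 reads of the 5p arm at day 8 and 107 ± 26.8 at day 0 (SD, n = 6 each). The libraries ran from 159 through a median of 210 to 266 at day 8 and from 81.0 through a median of 101 to 139 at day 0, and did not overlap. The log2 ratio of 5p to 3p rose by 0.96 (SE 0.172, adjusted p = 0.000162, limma over 72 hairpins with both arms at a mean of at least 20 CPM). In this fit 62.5% of hairpins were called, and the 5p arm gained on the 3p arm in 36.1%. The change of miR-214 was the 8th highest of the 72. Arms can be captured in a library with unequal efficiency, so the ratio at one age does not give the ratio of molecules.

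By mean CPM, the order was miR-199a-5p, miR-199b-5p, miR-214-5p and miR-214-3p at both ages. Among all 1652 names their ranks by mean CPM were 40, 104, 184 and 226 at day 8, and 37, 106, 171 and 172 at day 0. The libraries of miR-199a-5p lay above all of miR-199b-5p, and those of miR-199b-5p, from 334 CPM, above all of both miR-214 arms, up to 290.0 CPM. At day 8 the 5p arm of miR-214 (from 81.4 CPM) lay above its 3p arm (up to 75.0 CPM) without overlap, whereas at day 0 their ranges overlapped and their means, 231 and 226 CPM, differed by less than the spread between libraries. Of the summed CPM of the 4, miR-199a-5p held 85.6 ± 1.35% at day 8 and 81.4 ± 1.32% at day 0, and miR-214-3p held 1.15 ± 0.620% at day 8 and 3.48 ± 0.685% at day 0 (SD, n = 6 each).

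Hairpins of one transcript are often seen to differ in their mature levels, so the pair was set beside other neighbours. Each hairpin was represented by the more abundant of its tested arms that had a RefSeq entry. For some hairpins the more abundant arm had no such entry, so the less abundant arm stood in. For miR-23b, miR-23b-5p was used although miR-23b-3p was far more abundant. Pairs lay on the same strand with at most 10 kb between them. Over 279 such pairs, the median absolute difference between the log2 changes of these arms was 0.49. For miR-199a-2 and miR-214 it was 0.79 with the 5p arm of miR-214, which is its more abundant arm over all libraries, and 84 of 278 other pairs (30.2%) differed at least as much. With the 3p arm it was 1.75, and 10 of 278 other pairs differed at least as much. That count is not like for like. Here the less abundant arm was chosen, whereas elsewhere it was used only where the more abundant arm had no RefSeq entry. Of the 279 pairs 181 lie on chromosome 12. Outside it, 27 of 97 other pairs reached the difference of the 5p arm. Both counts for the 5p arm, 84 of 278 and 27 of 97, include pairs that rest on a less abundant arm. One is miR-23b with miR-27b, counted through miR-23b-5p. With TMM factors miR-23b-3p and miR-27b-3p both rose, and their log2 changes differed by less than 0.79. How these counts would move with the more abundant arm of every hairpin was not tested. The difference of the 3p arm, with the same unlike measure, was reached by 1 of 97, namely miR-194-1 with miR-215. In that pair the age change of miR-215-5p was not past the threshold with TMM factors (SE 0.906, limma adjusted p = 0.146). The pairs share hairpins and are a description, and the share of miR-199a-5p that comes from miR-199a-1 rather than from Dnm3os was not measured.

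**Figure D4:**
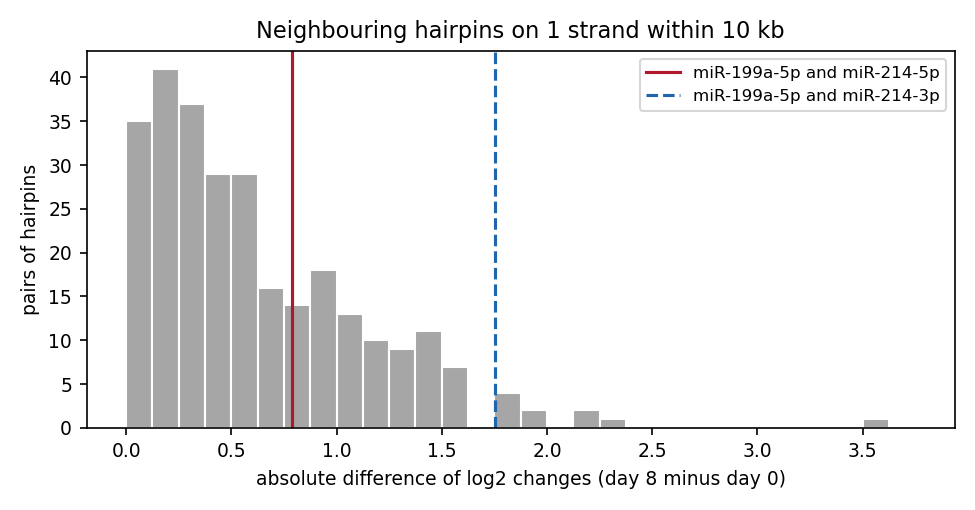
Histogram of the absolute difference between the log2 changes (x axis, day 8 minus day 0) of neighbouring hairpins, for 279 pairs on one strand within 10 kb. The line for miR-199a-5p with miR-214-5p, at 0.79, lies within the bulk of the pairs. The dashed line for miR-199a-5p with miR-214-3p, at 1.75, lies in the upper tail. The histogram uses the more abundant tested arm with a RefSeq entry, which for some hairpins is their less abundant arm. Both arms of miR-214 have an entry and miR-214-3p is the less abundant, so the dashed line is not like for like.

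The names whose profile over the 12 libraries was most like each miRNA were found by the root mean square (RMS) difference of log2(CPM + 1), centred on the mean of each name, among 211 other names with a mean of at least 100 CPM. For miR-199a-5p these were miR-301a-3p (RMS difference 0.138), miR-19b-3p (0.151) and miR-9-3p (0.159), and miR-199b-5p was closer still (0.133). For miR-199b-5p they were miR-19b-3p (0.122), miR-542-3p (0.212) and miR-708-3p (0.221). miR-214-5p was nearest to miR-450b-3p (0.171), miR-708-5p (0.176) and miR-7b-5p (0.193). miR-214-3p was nearest to miR-335-3p (0.304), from the imprinted gene Mest, and to miR-382-5p (0.333) and miR-134-5p (0.340) of the imprinted Dlk1-Dio3 cluster. It was farther from miR-214-5p (0.561) and from miR-199a-5p (0.990).

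Other miRNAs of mesenchymal cells, taken as all arms of miR-143, miR-145a, miR-140, miR-152 and miR-455, were mostly higher at day 8 or not past the threshold. Of 10 names tested 6 rose and 0 fell, where 16.5% of all names were called higher and 48.2% lower. With TMM factors 9 rose and 0 fell, where 30.3% of all names were called higher and 34.2% lower. The median log2 change was 0.36 over the list and -0.34 over all names tested. miR-143-3p, of smooth muscle and fibroblasts, was at 39732 ± 2441 CPM at day 8 and 30851 ± 2072 CPM at day 0 (SD, n = 6 each), a log2 change of 0.37 (limma adjusted p = 9.1e-05). miR-455-5p, of cartilage, was at 1090.2 ± 242 CPM at day 8 and 667 ± 65.5 CPM at day 0 (SD, n = 6 each), and rose by 0.68 on the log2 scale (adjusted p = 0.000434, limma). miR-152-3p and miR-145a-5p, at -0.03 and 0.19, were not past the threshold, and both passed with TMM factors (0.36 and 0.58).

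Markers of other tissues also moved with age, and their counts are to be read against the same shares of all names, 48.2% lower and 16.5% higher (34.2% and 30.3% with TMM factors). The striated muscle list (miR-1a, miR-133a, miR-133b and miR-206) had 3 of 3 tested names lower at day 8 (2 with TMM factors), of 7 names in all, and its sum lay between 402 and 497 CPM at day 8 and between 485 and 1987 CPM at day 0. Both arms of the liver miRNA miR-122 were lower, with a sum of 15.2 to 333 CPM at day 8 and 481 to 3296 CPM at day 0. miR-133b-3p and miR-122-3p reached 0 in some day 8 libraries. The part of such tissue in the fall of miR-214 was not tested. Endothelial miRNAs had 2 of 3 tested names higher and 0 lower, those of the proximal tubule 3 of 3 higher, and the epithelial miR-200 family 3 of 9 higher and 4 lower (4 and 0 with TMM factors). Among the erythroid miRNAs 0 of 3 passed.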

How the data were processed

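RNA from a NucleoSpin miRNA kit went into QIAseq miRNA libraries, per the labels' protocols. The submitters' processing notes name FastQC. The aligner, genome build, read filters and use of molecular identifiers were not given in the sources used here. Age labels set the groups, and replicate numbers follow accession order and only name a library. Separate animals are not stated for the replicates, so p-values measure only the spread between these samples, which may be technical.

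Values come from 1 table that the authors deposited in CPM (counts per M reads), in which each library sums to 1000000. The values are whole multiples of 1 read: 100% came out whole within 0.001 of a read, and the reads recovered in this way gave the depth (3.37 to 11.8 M per library). The number of reads behind a value bears only on its counting error, not on the spread between libraries. Replicates were checked for copies and none was found (lowest chi-square per degree of freedom 50.9).

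log2(CPM + 1) was fitted with limma 3.58.1 in R 4.3.3, using eBayes with a trend, for the 564 names with at least 1 CPM in at least 6 libraries. The scale understates changes of low names. Benjamini-Hochberg adjustment ran over all names, and calls used a threshold of 0.05. The same fit was made on log2 ratios to miR-199a-5p and on log2 ratios of 5p to 3p. For single miRNAs an exact permutation test, two-sided, was run on mean CPM. The calculations were tested on simulated data. Alternatives were other pseudocounts, filters and scalings, each library left out, and edgeR 4.0.16 and DESeq2 1.42.0 on the recovered reads, which called 368 and 369 names.

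The miRNAs and lists were chosen with earlier results of these data known. Named miRNAs are the arms of the 3 hairpins, names with a shared seed, up to 4 of the most abundant of each list, and the 3 names with the most similar profile to each arm. miR-215, miR-194-1 and miR-761 were named for their place in a count, and miR-23b and miR-27b as an example of the arms used for neighbouring hairpins. Lists were matched by hairpin name. Sequences are from RefSeq (GRCm38.p6) and positions from GENCODE M21 (GRCm38), since the authors' build is not known. Day 8 replicate 3 and day 0 replicate 6 were left out together after seeing the data.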

Additional observations from a re-analysis of the deposited data

Results flagged for a closer look

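Among 28 groups of 6 libraries examined for a library far from the others, 6 stood out by Dixon's ratio, where chance flags about 1 in 20 groups. Of these, 4 are the same library in ratios that share their terms. In day 8 replicate 3 there were 2.84 reads of miR-214-3p and 4.50 reads of miR-214-5p per 100 reads of miR-199a-5p, against 0.874 to 1.45 and at most 2.50 in the other day 8 libraries. Per 100 reads of miR-199b-5p the same library had 22.4 reads of miR-214-3p and 35.6 of miR-214-5p, against 6.56 to 10.7 and 15.8 to 18.7 in the others. Through day 8 replicate 3 both ratios to miR-199b-5p overlapped between the ages, with day 0 libraries from 21.2 and 27.4. This library had the fewest reads of its age, 5.16 M.

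In day 8 replicate 4 miR-214-5p was at 81.4 CPM, against 113 to 123 CPM in the other day 8 libraries. The erythroid miR-451a was at 619.8 CPM in day 0 replicate 6, against 100.3 to 191 CPM in the other day 0 libraries.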

How the results depend on the processing

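Both arms of miR-214 were lower at day 8 and past the threshold under all 21 alternatives, with log2 changes from -2.11 to -1.45 for the 3p arm and from -1.10 to -0.49 for the 5p arm. The direction of miR-199a-5p turned with TMM factors (0.13), upper quartile factors (0.31), edgeR (0.16) and DESeq2 (0.21), and never passed the threshold. miR-199b-5p turned with upper quartile factors (0.16), edgeR (0.015) and DESeq2 (0.058), and was no longer past the threshold with TMM factors (-0.019), without a filter on low values (-0.41, adjusted p = 0.0833 by limma, more names being tested) or without both libraries that lie apart, an alternative chosen after seeing the data (-0.25). The cause of these turns was not tested. With single libraries left out, the log2 change ran from -0.34 to -0.12 for miR-199a-5p and from -0.46 to -0.26 for miR-199b-5p, whose call was lost without day 8 replicate 1, 3 or 4 or day 0 replicate 3, 4, 5 or 6. The ratios of miR-214 to miR-199a-5p and the arm ratio of miR-214 kept their direction and stayed past the threshold under each alternative run. The number of hairpins called for the arm ratio was 45, and 68 or 26 with a minimum of 5 or 100 CPM, where more or fewer hairpins were tested. No paired analysis was possible because the labels give the ages no shared replicate numbers.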
